A study of Mus musculus with 6 samples.

Results

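Bone morphogenetic proteins (BMPs) are secreted ligands of the TGF-beta superfamily. They bind paired type I and type II receptors, which phosphorylate SMAD1, SMAD5 and SMAD9, and these enter the nucleus with SMAD4 and switch on a short list of target genes. The ID genes are the classical targets: their products are helix-loop-helix proteins without a DNA-binding region, which capture E proteins and keep them off DNA. Smad6, Smad7 and Bambi are targets that feed back as inhibitors. In mouse liver, Bmp6 from sinusoidal endothelial cells drives hepcidin in hepatocytes, Gdf2 (BMP9) and Bmp10 come chiefly from stellate cells, and BAMBI acts as a brake on TGF-beta signalling in stellate cells.

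The 10 genes described here are the ligands Bmp4, Bmp5 and Bmp6, the targets Id1, Id2, Id3 and Id4, and the inhibitors Smad6, Smad7 and Bambi. They were chosen by symbol, all 10 were found among the 24346 symbols listed, and all 10 passed the filter on low values. RNA sequencing was done on hepatic stellate cells, liver pericytes that store vitamin A, from wild type C57BL/6 mice aged 35 weeks. The cells came from livers of mice on high-fat diet, split into tumour and non-tumour region, or from livers of mice on normal diet. Each of these 3 sources was isolated by perfusion at 37 and at 6 degrees, which gave 6 groups of 1 library each. Per the labels' protocols all were sorted for CD49a, with CD31+ and CD45.2+ cells gated out. Nothing in the labels says how many animals a library holds or whether libraries came from separate animals, so no value of a single library has an error of its own. The p-values below set each effect against what an additive model of source and temperature leaves unexplained in the 6 libraries. That spread may be technical, and it also holds any difference of the temperature effect between sources.

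The stellate cell label was checked against markers. All 10 stellate cell markers were at 1 FPKM (fragments scaled to transcript length and to library depth) or more in every library, led by Ecm1, Colec11, Lrat and Reln, with summed levels of 12946 to 20679 FPKM at 37 degrees and 11589 to 14150 FPKM at 6 degrees. The 15 sinusoidal endothelial markers, led by Clec4g, Fcgr2b, Egfl7 and Gpr182, summed to 109 to 563 FPKM at 37 degrees and to 1496 to 3542 FPKM at 6 degrees, and none was listed at 0. With temperature all 15 passed as lower at 37 degrees, as did 8 of 11 tested macrophage markers, and 3 of 10 stellate cell markers passed as higher. The 12 macrophage markers, led by Lyz2, C1qb, C1qc and C1qa, summed to 849 and 2060 FPKM at 37 and 6 degrees in the tumour region. In the other libraries they summed to 33.4 and 44.8 FPKM at 37 degrees and to 492 and 566 FPKM at 6 degrees, and Marco was at 0 in the non-tumour library of 37 degrees. The 9 hepatocyte markers, led by Fabp1, Apoa1, Alb and Hp, summed to 27.0 to 110 FPKM at 37 degrees and to 86.7 to 278 FPKM at 6 degrees. Of 5 cholangiocyte markers, Spp1, Sox9, Epcam and Krt7 were highest in that order and Krt19 was at 0 outside the tumour library of 37 degrees; the list summed to 5.63 to 38.0 FPKM at 37 degrees and to 4.45 to 60.6 FPKM at 6 degrees. The 6 portal fibroblast markers, led by Entpd2, Cd34, Fbln2 and Thy1 and with Msln at 0 throughout, summed to 16.6 to 21.4 and to 17.3 to 33.5 FPKM. The libraries held an estimated 1.82e+07 to 2.56e+07 fragments. The tumour library of 37 degrees held the highest of the 6 values for 5 of the 10 (Bmp4, Id1, Id2, Id3 and Smad7). This was true of 19.3% of all genes tested. Its margin was small for Smad7 (13.3 FPKM, with 12.7 FPKM next) and for Bmp4 (25.5 FPKM, with 23.3 FPKM next). This library also had the largest summed FPKM over all symbols, at 6.33e+05 against 4.93e+05 to 5.74e+05 in the others.

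Promoter sequences from RefSeq (GRCm38.p6) were at hand for 7 of the 10 genes, and not for Id1, Smad7 and Bambi. Those of the gene that passed for temperature and of 3 ID genes, the direct readout of BMP signalling, are shown as the 250 bases before the start site, 5′ to 3′ on the coding strand. Capitals mark GGCGCC, the core of the BMP response element, and CAGAC or its reverse complement GTCTG, the short element bound by SMADs; the letters of the motifs do not overlap here.
Bmp6, chr13:38345466-38345715, plus strand: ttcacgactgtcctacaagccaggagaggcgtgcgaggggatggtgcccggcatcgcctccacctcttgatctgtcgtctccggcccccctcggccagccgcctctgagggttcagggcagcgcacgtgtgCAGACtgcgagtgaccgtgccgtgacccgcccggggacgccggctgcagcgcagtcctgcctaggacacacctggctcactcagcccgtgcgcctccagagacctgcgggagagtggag
Id2, chr12:25096093-25096342, minus strand: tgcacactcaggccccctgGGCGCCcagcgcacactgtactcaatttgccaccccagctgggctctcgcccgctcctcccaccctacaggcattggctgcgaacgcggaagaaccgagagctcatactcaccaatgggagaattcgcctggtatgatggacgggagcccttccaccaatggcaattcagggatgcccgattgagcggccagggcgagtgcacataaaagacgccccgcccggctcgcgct
Id3, chr4:136143572-136143821, plus strand: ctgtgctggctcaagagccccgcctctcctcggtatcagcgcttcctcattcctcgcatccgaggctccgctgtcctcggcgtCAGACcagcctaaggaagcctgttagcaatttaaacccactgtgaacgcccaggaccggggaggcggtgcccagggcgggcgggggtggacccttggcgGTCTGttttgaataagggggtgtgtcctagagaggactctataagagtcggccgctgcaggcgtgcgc
Id4, chr13:48260866-48261115, plus strand: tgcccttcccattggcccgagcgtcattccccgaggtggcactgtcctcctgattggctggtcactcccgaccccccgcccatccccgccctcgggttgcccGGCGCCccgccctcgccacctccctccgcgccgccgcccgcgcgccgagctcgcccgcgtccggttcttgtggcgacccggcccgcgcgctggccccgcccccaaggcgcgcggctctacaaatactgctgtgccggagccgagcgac
Over the window of 300 bases that ends 50 bases after the start, GGCGCC was found in 2 of the 7 promoters (Id2 and Id4) and CAGAC or GTCTG in 3 (Bmp5, Bmp6 and Id3). Of 32851 promoters of the same length, 11.9% held the first and 49.6% the second motif, on either strand. Id2 had its highest value in the tumour library of 37 degrees and Id4 in the non-tumour library of 6 degrees. Any part of the motif in these levels was not tested.

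The levels of the 10 genes spanned a wide range. Id3 (chromosome 4, 136143497 to 136145755) was among the most abundant transcripts of these cells, with a mean of 2126 FPKM over the 6 libraries and a rank between 17 and 28 in each. Bmp5 and Id2 followed with mean levels of 177 and 168 FPKM, and their ranges over the libraries overlapped (137 to 226 and 89.1 to 390 FPKM). Bambi, Id1, Smad6 and Bmp4 formed the middle group with mean levels of 43.3, 34.4, 30.2 and 20.5 FPKM, again with overlapping ranges between neighbours. Smad7, Id4 and Bmp6 were lowest, at means of 11.03, 10.4 and 6.74 FPKM. Among the ID genes Id3 made up 88.9% to 93.0% of the summed FPKM in every library.

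**Figure D1:**
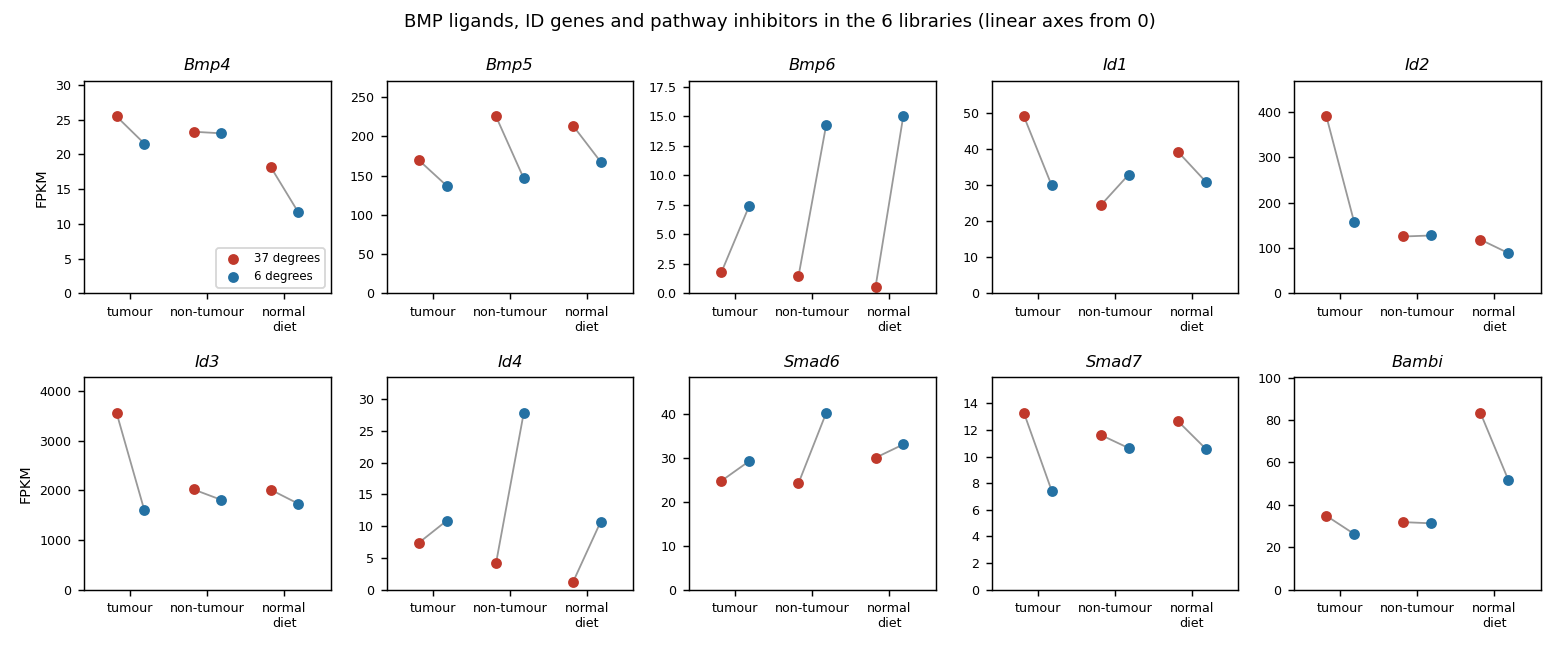
FPKM (linear axes from 0) of the 10 genes, by liver source, with the library of 37 degrees (red) left of the library of 6 degrees (blue) and a line joining the pair. Bmp6 and Id4 were lower at 37 degrees in all 3 sources, Bambi was highest in the normal diet pair, and Id2 and Id3 were highest in the tumour library of 37 degrees.

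The first comparison asked which of these transcripts differed after warm isolation. Among the 10 genes Bmp6 alone passed for temperature, and it was lower at 37 degrees. Of all 11558 genes tested 5.13% passed, 0.51% as higher and 4.62% as lower, so 1 in 10 is close to the background. Unadjusted p-values under 0.05 were found for Bmp5 and Bambi, which were higher, and for Bmp6, Id4 and Smad6, which were lower. At that threshold 985 of all 11558 genes tested were higher and 1394 lower. The 3 libraries of 37 degrees did not overlap the 3 of 6 degrees for 5 genes, of which Bmp5, Id3 and Smad7 were higher and Bmp6 and Id4 lower; 17.7% of all genes tested did not overlap (8.31% higher and 9.4% lower). All 3 pairs had the same sign for 8 genes (5 higher and 3 lower at 37 degrees), against 45.3% of genes tested (23.4% higher and 21.8% lower). The median log2 fold change of the 10 was 0.32, beside 0.01 over all genes tested.

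Among the ligands, Bmp6 (chromosome 13, 38345107 to 38500302, plus strand) was at 1.80, 1.45 and 0.529 FPKM at 37 degrees, against 7.41, 14.3 and 14.98 FPKM at 6 degrees, in the tumour, non-tumour and normal diet libraries. Every warm value lay below every cold value, with ratios (6 over 37 degrees) of 4.12, 9.83 and 28.3 in the 3 sources. Bmp6 fell by 2.54 on the log2(FPKM + 1) scale (SE 0.34, 3 pairs; limma, adjusted p = 0.0195), with a 95% interval of -3.39 to -1.69. The smallest of these values rested on an estimated 38 fragments and the largest on 1300. In the same libraries the summed endothelial markers had ratios (6 over 37 degrees) of 3.71, 6.29 and 13.8, and the macrophage markers of 2.43, 17.0 and 10.98; their part in the Bmp6 difference was not tested. In sorted bulk cells, fewer cells of a type and less RNA per cell cannot be told apart. The call did not pass without the non-tumour pair (log2 fold change -2.49, adjusted p = 0.124), without the source term (adjusted p = 0.140) or without the filter on low values (adjusted p = 0.326). Bmp6 shares 224 bases with Txndc5 on the other strand, and the use of strand is not given in the sources used here.

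Bmp5 (chromosome 9, 75775364 to 75900310), the most abundant of the 3 ligands with 79.7% to 91.9% of their summed FPKM in a library, moved the other way. It was at 170, 226 and 214 FPKM at 37 degrees, against 137, 146 and 168 FPKM at 6 degrees, in the tumour, non-tumour and normal diet libraries. The warm values lay above all cold values, but the log2 fold change of 0.42 ± 0.09 (SE) did not pass (limma, adjusted p = 0.0635; 95% interval 0.20 to 0.64). Bmp4 (chromosome 14, 46383520 to 46390669) was at 25.5, 23.3 and 18.2 FPKM at 37 degrees, against 21.6, 23.0 and 11.7 FPKM at 6 degrees. Its groups overlapped, and its log2 fold change was 0.28 ± 0.13 (adjusted p = 0.305).

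Of the ID genes, Id4 (chromosome 13, 48261228 to 48266026) had the largest difference. It was at 7.41, 4.19 and 1.22 FPKM at 37 degrees, against 10.9, 27.8 and 10.7 FPKM at 6 degrees, in the tumour, non-tumour and normal diet libraries. The groups did not overlap, but the log2 fold change of -1.79 ± 0.41 (SE) did not pass by limma (adjusted p = 0.0810). Its ratio (6 over 37 degrees) was 8.79 in normal diet, 6.64 in the non-tumour region and 1.47 in the tumour region. Without the tumour pair it passed (log2 fold change -2.44, adjusted p = 0.0021). The endothelial and macrophage marker sums given beside Bmp6 moved the same way, and their part in the Id4 values was not tested.

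For the more abundant ID genes the gap between temperatures was widest in the tumour pair. Id3 was at 3565, 2021 and 2017 FPKM at 37 degrees, against 1606, 1811 and 1734 FPKM at 6 degrees, and the tumour library of 37 degrees stood well above the other 5. Id3 did not pass (limma, log2 fold change 0.51 ± 0.21, adjusted p = 0.258). Id2 (chromosome 12, 25093799 to 25097140) was at 390, 125 and 119 FPKM at 37 degrees, against 157, 128 and 89.1 FPKM at 6 degrees. The temperature groups overlapped (log2 fold change 0.56 ± 0.25, adjusted p = 0.282). Id1 (chromosome 2, 152736251 to 152737410) was at 49.0, 24.4 and 39.2 FPKM at 37 degrees, against 29.9, 32.9 and 30.9 FPKM at 6 degrees. Id1 was thus higher after warm isolation in the tumour and normal diet pairs and lower in the non-tumour pair (adjusted p = 0.631). In the tumour pair the log2 differences (37 minus 6 degrees) were 0.69, 1.30 and 1.15 for Id1, Id2 and Id3; with 1 pair a source they could not be tested, nor could differences between sources. The E proteins that ID proteins bind had log2 fold changes with a median of -0.04 and 0 of 3 passing (limma; 0 at an unadjusted p under 0.05). Over the 6 libraries Tcf4 ran from 24.8 to 29.2 FPKM, Tcf3 from 11.4 to 18.2 FPKM and Tcf12 from 9.35 to 12.2 FPKM.

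The inhibitors differed little with temperature. Smad6 (chromosome 9, 63953076 to 64022059), which blocks BMP receptors and SMAD1, was at 24.7, 24.2 and 30.0 FPKM at 37 degrees, against 29.2, 40.2 and 33.0 FPKM at 6 degrees. It was lower at 37 degrees in all 3 pairs with overlapping groups (log2 fold change -0.36 ± 0.13, adjusted p = 0.213). Smad7 (chromosome 18, 75367529 to 75395935), which blocks TGF-beta and BMP receptors, was at 13.3, 11.6 and 12.7 FPKM at 37 degrees, against 7.43, 10.6 and 10.6 FPKM at 6 degrees. The warm values lay above all cold values (log2 fold change 0.37 ± 0.15, adjusted p = 0.249). Bambi, described with the diets, differed by 0.36 ± 0.13 on the log2 scale (adjusted p = 0.217).

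**Figure D2:**
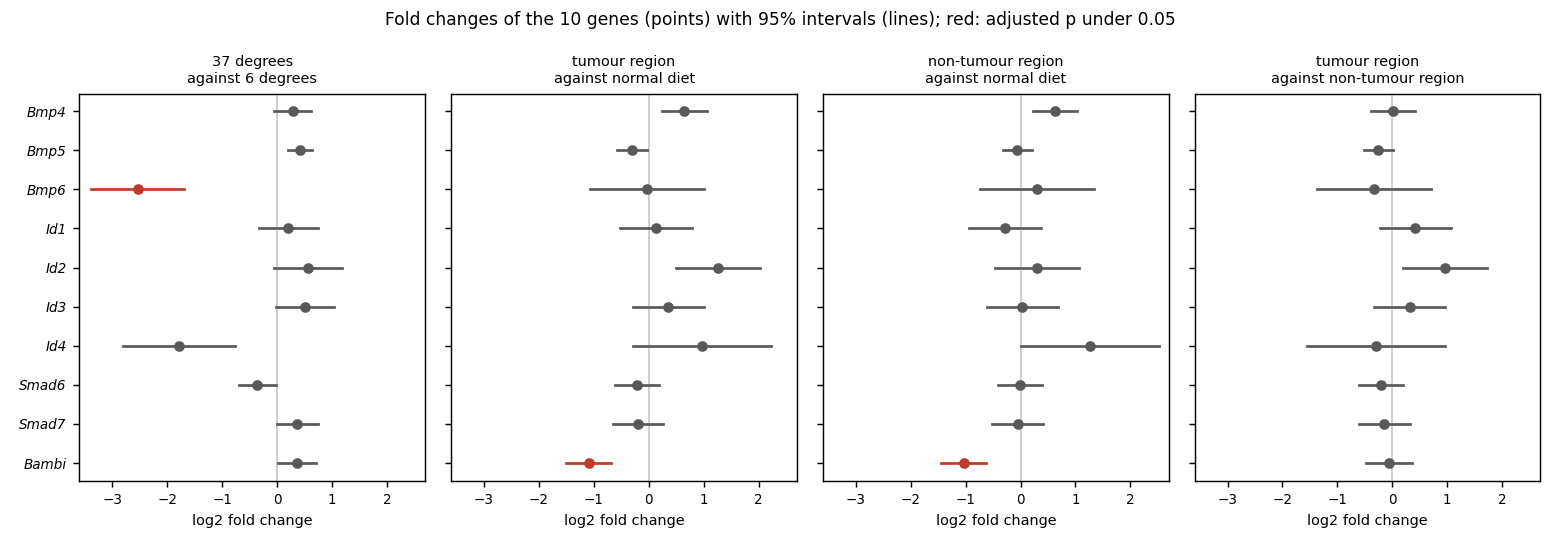
Log2 fold changes on the log2(FPKM + 1) scale (points) with 95% intervals from limma (lines) for the 10 genes in 4 comparisons; red marks an adjusted p under 0.05. Bmp6 passed for temperature, Bambi passed in both comparisons with normal diet, and no gene passed between the tumour and non-tumour region.

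**Figure D3:**
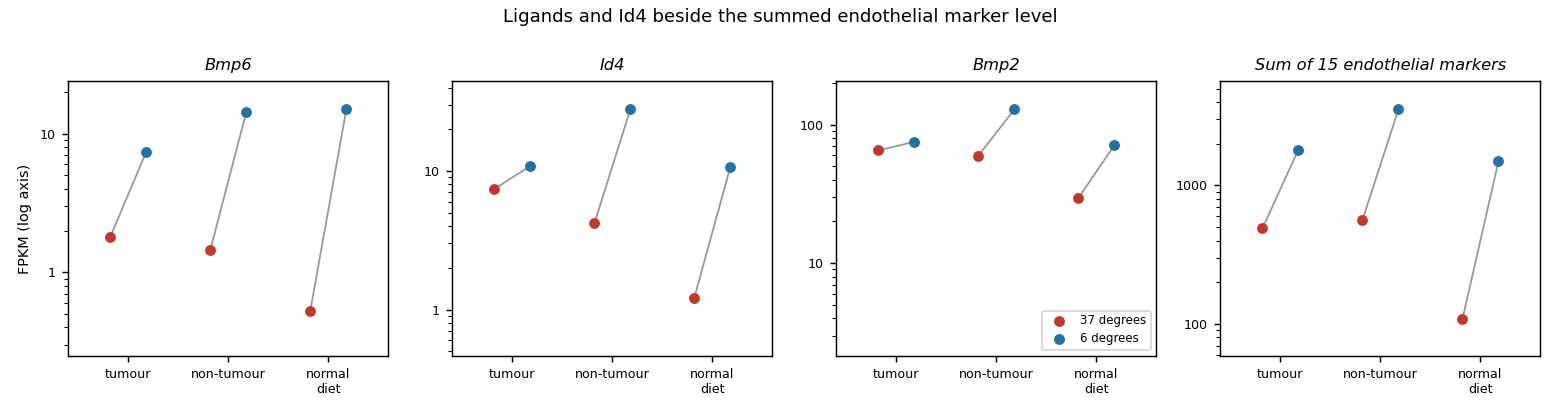
FPKM (log axes of equal span) of Bmp6, Id4, Bmp2 and the sum of 15 endothelial markers, by source, with 37 degrees (red) left of 6 degrees (blue). All 4 were lower at 37 degrees in each source, and each had its largest ratio (6 over 37 degrees) in normal diet. For Bmp2 that ratio was 2.40, close to the 2.16 of the non-tumour region. The summed macrophage markers, not drawn, were also lower at 37 degrees in each source (ratios 2.43, 17.0 and 10.98 in tumour, non-tumour and normal diet). The part of any cell type in these genes was not tested.

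The second comparison asked how stellate cells of high-fat diet livers differed from those of normal diet livers. Both high-fat contrasts use the same pair of normal diet libraries, so they are not independent. Bambi (chromosome 18, 3507923 to 3516404), a decoy receptor without a kinase domain, fell in both. It was at 34.8 and 26.3 FPKM in the tumour region and at 31.9 and 31.3 FPKM in the non-tumour region, against 83.4 and 51.9 FPKM in normal diet (37 and 6 degrees). Both high-fat pairs lay below the normal diet pair at either temperature. For the tumour region against normal diet Bambi fell by 1.10 on the log2 scale (SE 0.16, 2 pairs; limma, adjusted p = 0.0199), with differences of -1.24 at 37 degrees and -0.96 at 6 degrees. For the non-tumour region it fell by 1.04 (SE 0.16, adjusted p = 0.0292), with differences of -1.36 and -0.71. In the same contrasts 3 of 15 endothelial markers passed as higher for the tumour region and 5 of 15 for the non-tumour region. Of 11 macrophage markers tested, 6 passed as higher for the tumour region and 0 for the non-tumour region (0 at an unadjusted p under 0.05). The part of these cells in the Bambi values was not tested. Without the normal diet library of 37 degrees neither passed (adjusted p = 0.0922 and 0.124). The tumour contrast also did not pass without either tumour library (adjusted p = 0.0704 without that of 37 and 0.0540 without that of 6 degrees). The non-tumour contrast did not without either non-tumour library (0.148 and 0.0813) or with a prior that ignores intensity (0.0544).

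Bambi was 1 of 10 genes to pass in either contrast, against 9.35% of all genes tested for the tumour region (6.07% higher and 3.28% lower) and 5.56% for the non-tumour region (2.98% higher and 2.59% lower). Libraries did not overlap for 4 genes in the tumour contrast (Bmp4 and Id2 higher, Smad6 and Bambi lower) and for 3 in the non-tumour contrast (Bmp4 and Id2 higher, Bambi lower). With 2 libraries against 2 this was true of 49.8% of all genes tested for the tumour region (25.1% higher and 24.6% lower) and of 45.4% for the non-tumour region (24.1% higher and 21.3% lower). The median log2 fold change of the 10 was 0.05 for the tumour and 0.01 for the non-tumour region, beside 0.01 and 0.03 over all genes.

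Id2 was highest in the tumour region, at 390 and 157 FPKM, and had 125 and 128 FPKM in the non-tumour region and 119 and 89.1 FPKM in normal diet (37 and 6 degrees). Its log2 fold change for the tumour region against normal diet was 1.26 ± 0.30 (SE, 95% interval 0.50 to 2.03; limma, adjusted p = 0.0651). It passed without the tumour library of 6 degrees (1.82, adjusted p = 0.0102), where the tumour value rests on the library of 37 degrees. The macrophage marker sums were also highest in the tumour region, at 849 and 2060 FPKM (37 and 6 degrees). Within that pair the sum was higher at 6 degrees and Id2 at 37 degrees. The part of macrophages in the Id2 values was not tested. Bmp4 was at 25.5 and 21.6 FPKM in the tumour region, 23.3 and 23.0 FPKM in the non-tumour region and 18.2 and 11.7 FPKM in normal diet. Neither the tumour region (log2 fold change 0.65 ± 0.16, adjusted p = 0.0703) nor the non-tumour region (0.63 ± 0.16, adjusted p = 0.0936) passed. Id4 had differences of 0.97 ± 0.50 in the tumour region (adjusted p = 0.290) and of 1.26 ± 0.50 in the non-tumour region (adjusted p = 0.230), neither passing. Without the tumour library of 6 degrees Id4 passed in both contrasts (1.94, adjusted p = 0.00899 for the tumour region and 1.26, adjusted p = 0.00996 for the non-tumour region), and Id3 passed in the tumour contrast (0.84, adjusted p = 0.0407). Id4 also passed in the non-tumour contrast without the tumour library of 37 degrees (adjusted p = 0.0103). The tumour contrast gave -0.31 ± 0.11 for Bmp5 (adjusted p = 0.149) and 0.36 ± 0.26 for Id3 (adjusted p = 0.440). Bmp6, Id1, Smad6 and Smad7 had log2 fold changes between -0.29 and 0.31 over both contrasts, none passing.

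The third comparison set the tumour region against the non-tumour region of high-fat livers. None of the 10 genes passed by limma, against 0.45% of all genes tested. At an unadjusted p under 0.05 there was 1 of the 10, against 736 higher and 433 lower of all 11558 genes tested. That gene was Id2, whose tumour libraries were higher by 0.96 ± 0.30 on the log2 scale (SE, 95% interval 0.20 to 1.73, adjusted p = 0.394), with a difference of 1.63 at 37 degrees and 0.30 at 6 degrees. Id2 was also the gene whose libraries did not overlap, as did not 32.5% of all genes tested. Without the tumour library of 6 degrees it passed (1.52, adjusted p = 0.0324). The remaining 9 genes had log2 fold changes between -0.34 (Bmp6) and 0.42 (Id1). The median of the 10 was -0.10, beside -0.02 over all genes.

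Further genes of the pathway came from a list of 64, of which 38 had a mean of at least 1 FPKM and were tested. With temperature 1 rose and 2 fell, for the tumour region against normal diet 3 were higher and 3 lower, for the non-tumour region 1 was higher and 1 lower, and between the high-fat regions 0 passed by limma (an unadjusted p under 0.05 was found for 3 higher and 3 lower). Over all genes tested 5.13%, 9.35%, 5.56% and 0.45% passed in these 4 comparisons. Between the high-fat regions 736 were higher and 433 lower of all 11558 genes at an unadjusted p under 0.05. The median log2 fold changes of the list were 0.20, 0.01, 0.00 and -0.05, beside 0.01, 0.01, 0.03 and -0.02 over all genes.

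Of 11 other ligands 4 were tested. Gdf2 (BMP9), which signals to endothelium, was the most abundant ligand of all, at 438, 609 and 582 FPKM at 37 degrees, against 403, 436 and 499 FPKM at 6 degrees, in the tumour, non-tumour and normal diet libraries (log2 fold change 0.27 ± 0.09, adjusted p = 0.185). Bmp10, its closest relative, rose with temperature by 0.55 ± 0.08 on the log2 scale (adjusted p = 0.0264). Its levels were 16.1, 23.8 and 26.8 FPKM at 37 degrees, against 10.6, 15.3 and 18.9 FPKM at 6 degrees. In the tumour region Bmp10 fell by 0.74 relative to normal diet (SE 0.10, adjusted p = 0.0168). The temperature call did not pass without the tumour, non-tumour or normal diet pair (adjusted p = 0.0751, 0.201 and 0.0791). The tumour call was lost without the tumour, non-tumour or normal diet library of 37 degrees (0.0660, 0.0523 and 0.0819) and without the normal diet library of 6 degrees (0.0914). Bmp2 was at 65.1, 59.6 and 29.5 FPKM at 37 degrees, against 75.1, 129 and 70.9 FPKM at 6 degrees (log2 fold change -0.85 ± 0.21, adjusted p = 0.0981). It passed without the tumour pair (-1.17, adjusted p = 0.00459). The part of the endothelial and macrophage cells, whose sums are given above, in the Bmp2 values was not tested.

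**Figure D4:**
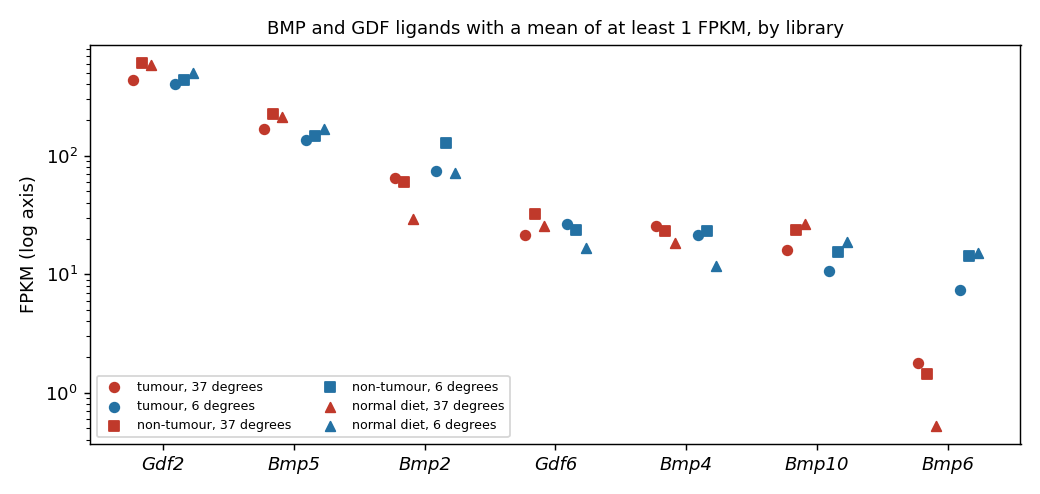
FPKM (log axis) of the 7 BMP and GDF ligands with a mean of at least 1 FPKM; shapes are liver sources and colours are 37 degrees (red, left) and 6 degrees (blue, right). Gdf2 and Bmp5 were highest in every library, and Bmp6 had the widest gap between temperatures.

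Of 9 receptor and co-receptor genes tested, 1 fell with temperature, 1 rose and 2 fell in the tumour region and 1 fell in the non-tumour region relative to normal diet, and 0 passed between the high-fat regions by limma (1 at an unadjusted p under 0.05). Over all genes tested 5.13%, 9.35% (6.07% higher and 3.28% lower), 5.56% and 0.45% passed in these comparisons. Between the high-fat regions 736 were higher and 433 lower of all 11558 at an unadjusted p under 0.05. Acvrl1, the endothelial type I receptor ALK1, fell with temperature by 1.45 (SE 0.18, adjusted p = 0.0152), to 2.48, 0.950 and 0.360 FPKM at 37 degrees, against 6.33, 5.81 and 2.79 FPKM at 6 degrees, in the tumour, non-tumour and normal diet libraries. It rose by 1.15 ± 0.22 in the tumour region relative to normal diet (adjusted p = 0.0351). The endothelial marker sums moved with both differences, at 490 and 1817 FPKM in the tumour region and 109 and 1496 FPKM in normal diet (37 and 6 degrees). They were highest in the non-tumour region, at 563 and 3542 FPKM, where Acvrl1 lay below its tumour values. The part of endothelial cells in the Acvrl1 values was not tested. The temperature call of Acvrl1 did not pass without the non-tumour or the normal diet pair (adjusted p = 0.0914 and 0.0580). Its tumour call passed without the tumour library of 6 degrees (adjusted p = 0.0316), but not when any of the other 5 was left out (0.0540 to 0.159), nor with a pseudocount of 0.1 FPKM (0.0566). Eng, the co-receptor endoglin, was at 350, 421 and 378 FPKM at 37 degrees, against 427, 588 and 438 FPKM at 6 degrees (log2 fold change -0.33 ± 0.08, adjusted p = 0.102), and passed under quantile normalization (-0.46, adjusted p = 0.0359). Acvr2a, a type II receptor, fell by 1.01 ± 0.10 in the tumour and by 0.91 ± 0.10 in the non-tumour region (adjusted p = 0.00941 and 0.0134). Its levels were 25.1 and 17.2 FPKM in the tumour region and 26.5 and 18.8 FPKM in the non-tumour region, against 47.6 and 38.7 FPKM in normal diet (37 and 6 degrees). The tumour call of Acvr2a passed without each of the 6 libraries (adjusted p up to 0.0477). The non-tumour call was lost without either non-tumour library (0.113 and 0.146) or either normal diet library (0.0568 and 0.0691), those of 37 degrees first. Neo1, the neogenin receptor for RGM co-receptors, fell by 0.68 ± 0.13 in the tumour region (adjusted p = 0.0362), at 5.78 and 5.01 FPKM against 10.6 and 8.06 FPKM in normal diet. It did not pass when any 1 of the 6 libraries was left out (0.0631 to 0.187).

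Of 9 secreted modulators tested, 2 passed as higher in the tumour region and 1 in the non-tumour region relative to normal diet. In both contrasts 0 passed as lower. Over all genes tested 6.07% and 2.98% passed as higher. At an unadjusted p under 0.05, 4 were higher and 0 lower in the tumour region by limma. The non-tumour region had 1 higher and 1 lower. Of all 11558 genes tested, 1780 were higher and 1223 lower in the tumour region at that threshold. In the non-tumour region 1461 were higher and 1043 lower. Bmper, an extracellular BMP-binding regulator, rose by 1.65 ± 0.20 in the tumour region and by 1.70 ± 0.20 in the non-tumour region (limma, adjusted p = 0.0132 and 0.0141). Its levels were 15.2 and 13.8 FPKM in the tumour region and 17.7 and 12.8 FPKM in the non-tumour region, against 5.77 and 2.61 FPKM in normal diet (37 and 6 degrees). The tumour call passed without each library (adjusted p up to 0.0430), and the non-tumour call was lost without either non-tumour library (0.115 without that of 37 and 0.146 without that of 6 degrees). Chrdl1, a chordin-like antagonist, was at 1.75 and 1.18 FPKM in normal diet and 2.06 and 1.46 FPKM in the non-tumour region (37 and 6 degrees). In the tumour region it rose by 1.29 ± 0.22 relative to normal diet (adjusted p = 0.0256), to 4.40 and 5.64 FPKM. It passed without the tumour library of 37 degrees (adjusted p = 0.0293), but not when any of the other 5 was left out (0.0580 to 0.133). The secreted follistatin-like gene Fstl1 and the chordin partner Twsg1 differed with temperature by 0.25 ± 0.10 and 0.19 ± 0.10 on the log2 scale (adjusted p = 0.252 and 0.360). The antagonist genes Nog and Grem1 were listed at 0 in all 6 libraries.

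The signal transducers showed no calls: of 10 tested SMADs and regulators, 0 passed by limma in any of the 4 comparisons (1 higher with temperature and 1 lower in the non-tumour region at an unadjusted p under 0.05). At that threshold 985 of all 11558 genes tested were higher with temperature and 1043 lower in the non-tumour region. Smad1 was at 51.3, 43.9 and 46.0 FPKM at 37 degrees, against 42.7, 49.3 and 46.7 FPKM at 6 degrees, in the tumour, non-tumour and normal diet libraries (log2 fold change 0.02 ± 0.10, adjusted p = 0.919). Of 6 other targets tested, Gata2, an endothelial and blood transcription factor, fell with temperature by 1.38 ± 0.16 (adjusted p = 0.0139). Its levels were 0.858, 0.824 and 0.0307 FPKM at 37 degrees, against 3.08, 4.78 and 1.59 FPKM at 6 degrees. The part of the endothelial and macrophage cells, whose sums are given above, in the Gata2 values was not tested. Without the non-tumour pair Gata2 did not pass (adjusted p = 0.0922).

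Over the 6 libraries, the genes whose log2(FPKM + 1) followed each of the 10 most closely were named by Pearson's r (0.981 to 0.998), as a description without a test. The points share their libraries, sources and temperatures. For Bmp6 they were Hmg20b and Sars2, for Id4 Fas and Gas6, for Id3 Srsf7 and Zfp131, and for Id2 Cycs and Pde12. Bambi was nearest to Lzts3 and Tle2, Smad6 to Fam110a and Gm10509, Smad7 to Abhd1 and Amd1, Id1 to Map2k3 and Zbtb2, Bmp5 to Nol6 and Bbs2, and Bmp4 to Ybx3 and Faap20.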

How the data were processed

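The deposited values are FPKM for 24346 gene symbols in each of the 6 libraries. Per the submitters' processing notes the authors used TopHat2 2.1.1, Bowtie2 and Cuffdiff 2.2.1 with the mm10 build. How genes were annotated, whether strand was used and how libraries were scaled is not given in the sources used here. Coordinates are from GENCODE M21 (GRCm38) and promoters from RefSeq.

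FPKM hold no counts. Depth was estimated from the steps between low values of genes with a single annotated transcript, with 200 bases taken off each length; assumed lengths of 0 to 300 bases gave lowest estimates of 1.63e+07 to 1.95e+07 and highest of 2.28e+07 to 2.75e+07 fragments.

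After leaving out 1311 small RNA symbols, 11558 genes averaged 1 FPKM or more. These entered limma 3.58.1 (R 4.3.3) as log2(FPKM + 1). The pseudocount makes fold changes of low genes smaller than the FPKM ratio. The model had source and temperature as additive terms, with 2 residual degrees of freedom (5.37 with the prior, fitted with an intensity trend). It was tested on simulated data. P-values are two-sided and Benjamini-Hochberg adjusted over all genes tested; an adjusted p under 0.05 passes. All fold changes are on the log2(FPKM + 1) scale, with SE from this model. Alternatives were a pseudocount of 0.1, no filter, a mean of at least 5 FPKM, quantile normalization, median-ratio rescaling, no intensity trend, no source term and each library or pair left out.

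Named were the 10 genes, the pathway genes that passed in a comparison, 6 others of the highest mean, the 4 highest markers of each cell type and the 2 nearest genes by correlation. The cholangiocyte marker Krt19, the markers at 0, Tcf3, Tcf4, Tcf12, Nog and Grem1 were named after their values were seen. The members and lists were chosen with earlier results of these data known.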

Additional observations from a re-analysis of the deposited data

Results flagged for a closer look

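Differences that pointed opposite ways in different sources or at different temperatures are listed here; each rests on single pairs of libraries and none of these differences between differences was tested. Values are gaps between log2(FPKM + 1) differences.

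For the difference between 37 and 6 degrees, Id1 was higher at 37 degrees in the tumour region and lower in the non-tumour region (gap 1.11), and Id2 likewise (gap 1.33, with a difference of -0.03 in the non-tumour region).

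For the tumour region against normal diet, the difference was positive at 37 degrees and negative at 6 degrees for Bmp6 (gap 1.80), Id1 (0.36), Id3 (0.93) and Smad7 (0.52). For the tumour against the non-tumour region the same held for Bmp4 (gap 0.22), Bmp6 (1.05), Id1 (1.11), Id3 (0.99), Id4 (1.98), Smad6 (0.48), Smad7 (0.64) and Bambi (0.37).

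For the non-tumour region against normal diet, Bmp5 (gap 0.27) and Bmp6 (0.75) had positive differences at 37 degrees and negative ones at 6 degrees. Id1 (gap 0.74), Smad6 (0.58) and Smad7 (0.12) had negative differences at 37 degrees and positive ones at 6 degrees.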

How the results depend on the processing

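Counts of genes passing depended on the setting. Without the filter on low values 0 of all genes passed for temperature, tumour region against normal diet, non-tumour region against normal diet and tumour against non-tumour region by limma (2685, 3610, 2945 and 1824 at an unadjusted p under 0.05), and 0 of the 10 genes in any of these (2, 2, 1 and 0 unadjusted). With a mean of at least 5 FPKM the counts over all genes were 330, 681 and 0 for temperature, tumour against normal diet and tumour against non-tumour region (the last with 760 unadjusted). With a pseudocount of 0.1 FPKM the last was 0 (1139 unadjusted). Without the source term 0 genes passed for temperature (1238 unadjusted), none of the 10 among them (5 unadjusted). Without the intensity trend 0 of the 10 passed for the non-tumour region against normal diet (2 unadjusted).

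With each pair left out, 82 to 472 genes passed for temperature (82 without the non-tumour pair), and 0 to 2 of the 10. With each library left out, 306 to 980 passed for the tumour region against normal diet, 0 to 894 for the non-tumour region and 0 to 165 between the high-fat regions, and of the 10 genes 0 to 3, 0 to 2 and 0 to 1. A lone library is then assumed to vary like the others. The pathway genes named as changed also did not pass without the filter, nor, for temperature, without the source term. The cause of these changes was not tested, beyond the smaller number of libraries or the larger number of genes.

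For differences that did not pass, signs changed as follows. For the tumour region against normal diet Bmp6 had 0.29 with a pseudocount of 0.1 FPKM. Under quantile normalization Id3 had -0.11 for the tumour and -0.26 for the non-tumour region against normal diet. With libraries left out, the log2 fold changes for the tumour region against normal diet ran from -0.74 to 0.69 for Bmp6, from -0.23 to 0.50 for Id1, from -0.13 to 0.84 for Id3, from -0.0018 to 1.94 for Id4 and from -0.49 to 0.095 for Smad7. For the non-tumour region against normal diet they ran from -0.20 to 0.089 for Bmp5, -0.33 to 0.94 for Bmp6, -0.75 to 0.18 for Id1, -0.14 to 0.74 for Id2, -0.23 to 0.30 for Id3, -0.27 to 0.25 for Smad6 and -0.24 to 0.14 for Smad7. For the tumour against the non-tumour region they ran from -0.18 to 0.22 for Bmp4, -1.05 to 0.38 for Bmp6, -0.042 to 0.88 for Id1, -0.16 to 0.80 for Id3, -1.26 to 0.68 for Id4, -0.47 to 0.056 for Smad6, -0.43 to 0.15 for Smad7 and -0.31 to 0.19 for Bambi. For temperature they ran from -0.040 to 0.51 for Id1 and from -0.093 to 0.12 for Smad1. The labels give no replicate numbers; the libraries of a source were paired by the source term, and the fit without it is given above.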
